A study of Mus musculus with 6 samples.

Results

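The 44 genes described here are effectors of the type I interferon response, the proteins that carry out the antiviral work once the interferon signal has been received. They were taken from the table of gene values by symbol, as a list of interferon-stimulated genes that leaves out the OAS enzymes, the guanylate-binding and immunity-related GTPases, the sensors and the IRF and STAT factors. The list was chosen with earlier results of these data known, so counts over it are not independent of the data. Of the 44, 43 stood in the table under their symbol and 1, Helz2, under its older name BC006779, out of 38124 genes in all. RNA came from cultured bone-marrow-derived macrophages of C57BL mice, labelled wild type, in 2 groups of 3 libraries. One group was untreated. The other had been exposed for 24 hr to thymocytes in which the glucocorticoid dexamethasone had induced apoptosis (ratio 1:40 per the labels), and is called treated below. The thymocytes were taken off before RNA was extracted, and age and sex of the mice are not in the sources used here. The series calls its samples biological replicates without saying what separates them, so p-values measure the spread between these libraries.

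Type I interferons bind a receptor of 2 chains, IFNAR1 and IFNAR2, whose kinases JAK1 and TYK2 activate factors of the STAT family. With IRF9 these form a complex that binds the interferon-stimulated response element (ISRE), a short DNA motif near the start of many target genes. Macrophages keep a low interferon tone in culture, and many effectors are therefore transcribed without infection. The effectors act at different steps of a viral life cycle: some hold virus particles at membranes, some bind or edit viral RNA or stop its translation, and some tag or ADP-ribosylate proteins.

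The ISRE is shown first because it is a sequence feature that many of these genes share. The genes were listed as interferon-stimulated, not by their sequence. Interferon acts through this motif, so the share of genes with a match is not independent of that choice. RefSeq promoter windows on GRCm38.p6, 250 bases before to 50 from each gene start, were found for 35 of the 44 genes. No window was used for Mx1, Mx2, Usp18, Ifi27l2a, Rtp4, Parp9, Parp14, Tor3a and Gvin1. The ISRE was searched as GAAA, any 2 bases and GAAA again on both strands, and matches may overlap each other. It was found in 14 of the 35 genes (40.0%), against 1079 of 27025 genes with any window (3.99%). A match is a description of the letters in these windows and does not show that a factor binds there.

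Of the stretches printed here, 3 belong to genes that fell, 3 to the neighbours Ifitm2, Ifitm3 and Ifitm6, which went different ways, and 1 to Lgals9, which carries the motif and was not lower. Each runs 5′ to 3′ in the direction of transcription, from 160 bases before the gene start to 30 bases from it, and capitals mark the ISRE letters on either strand.
Isg15 (chr4:156200789-156200978, minus strand): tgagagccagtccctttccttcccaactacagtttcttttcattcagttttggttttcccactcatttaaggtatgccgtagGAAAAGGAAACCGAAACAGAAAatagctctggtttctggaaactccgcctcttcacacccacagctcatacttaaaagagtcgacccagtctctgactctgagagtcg
Ifit1 (chr19:34640729-34640918, plus strand): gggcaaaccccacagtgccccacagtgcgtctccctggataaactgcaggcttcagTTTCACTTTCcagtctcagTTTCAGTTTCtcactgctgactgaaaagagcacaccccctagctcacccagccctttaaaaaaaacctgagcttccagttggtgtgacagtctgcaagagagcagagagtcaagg
Ifit3 (chr19:34583369-34583558, plus strand): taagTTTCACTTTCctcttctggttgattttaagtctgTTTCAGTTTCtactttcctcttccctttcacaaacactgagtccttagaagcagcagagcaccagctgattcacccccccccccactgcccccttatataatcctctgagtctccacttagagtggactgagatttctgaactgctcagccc
Ifitm2 (chr7:140955932-140956121, minus strand): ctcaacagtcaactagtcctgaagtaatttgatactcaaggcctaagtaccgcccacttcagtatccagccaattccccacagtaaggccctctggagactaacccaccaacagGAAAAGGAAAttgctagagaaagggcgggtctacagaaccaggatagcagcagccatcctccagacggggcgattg
Ifitm3 (chr7:141010715-141010904, minus strand): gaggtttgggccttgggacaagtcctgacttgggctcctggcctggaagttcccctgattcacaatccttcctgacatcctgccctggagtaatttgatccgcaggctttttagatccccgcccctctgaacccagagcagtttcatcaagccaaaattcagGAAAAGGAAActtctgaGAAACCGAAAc
Ifitm6 (chr7:141016863-141017052, minus strand): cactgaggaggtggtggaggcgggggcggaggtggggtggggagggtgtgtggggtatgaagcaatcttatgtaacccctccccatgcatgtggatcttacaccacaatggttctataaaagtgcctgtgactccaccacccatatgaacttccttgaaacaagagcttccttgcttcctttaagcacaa
Lgals9 (chr11:78984895-78985084, minus strand): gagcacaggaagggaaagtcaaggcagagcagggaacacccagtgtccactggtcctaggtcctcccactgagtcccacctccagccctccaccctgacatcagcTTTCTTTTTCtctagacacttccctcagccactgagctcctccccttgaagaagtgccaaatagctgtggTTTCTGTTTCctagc

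Isg15 held 3 overlapping matches, which begin 78, 72 and 66 bases before the gene start. Ifit1 held 2 (104 and 85 bases before it) and Ifit3 held 2 (156 and 122 bases before it). In Ifitm2 the single match lay 46 bases before the start, whereas both matches of Ifitm3 lay just past it, and the window of Ifitm6 held 0. The other genes with a match were Rsad2, Bst2, Trim21, Trim30a, Eif2ak2, Slfn5, Slfn8 and Ddx60. Among the 35 genes with a window, those with and without a match had the same median change. The 14 genes with one had a median log2 change of -0.79 (12 lower, 1 higher, 1 not called), and the 21 without had -0.79 as well (17 lower, 2 higher, 2 not called). The genes that lack a window took no part in this comparison. All of them were called lower, with log2 changes from -3.14 in Rtp4 to -0.71 in Mx1.

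**Figure D1:**
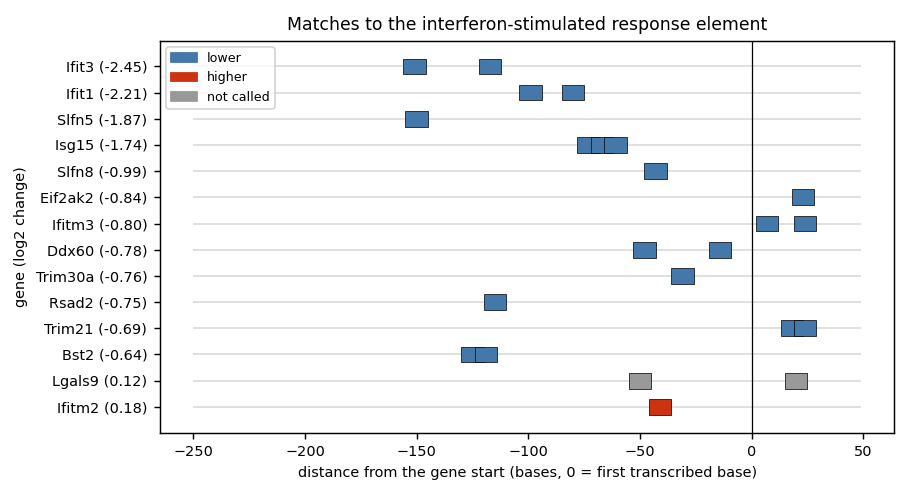
Position of each ISRE match (boxes) along the promoter window (250 bases before to 50 from the start) of the 14 genes that hold one, in bases from the gene start. Genes are ordered by log2 change, given in brackets, and coloured by call: Ifitm2 (higher) and Lgals9 (not called) are the 2 that were not lower.

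Levels are given as RPKM, reads per kilobase of gene scaled to the mapped reads of the library, so genes can be compared per length. Depth, recovered from the steps between low values, was 19315132 to 25933208 mapped reads per library, so that a single read on a 1 kb gene adds 0.0386 to 0.0518 RPKM. Each log2 change is the treated mean less the untreated mean of log2(RPKM + 1), a scale that understates the change of genes near 1 RPKM. The fit, in limma, covered the 10173 genes that reached 1 RPKM in 3 libraries or more, and a gene was called at a Benjamini-Hochberg adjusted p under 0.05 over all of them. All 44 genes passed this filter. Mx1, Mx2 and Ddx60 were under 1 RPKM in every treated library and passed it only through the untreated ones, so they could not have been called higher. Over all tested genes the median change was -0.13. Rescaling the libraries by median-of-ratios takes this shift away and turns 4679 lower and 1915 higher genes into 3023 and 3064.

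Most of the effectors fell. Of the 44, 38 were lower with apoptotic thymocytes (46.0% of all tested genes were), 3 were higher (18.8% of tested genes) and 3 were not called. The 38 include Mx1, Mx2 and Ddx60, for which the filter left no other direction. The median change of the 44 was -0.94. A call as lower with a log2 change below -1 was given to 20 of them, against 5.64% of all tested genes. In 38 genes every treated library lay below every untreated one (49.1% of tested genes), in 3 every treated library lay above (20.4%), and in 3 the groups overlapped (69.6% of tested genes had no overlap). After median-of-ratios rescaling, 38 were lower (29.8% of tested genes) and 5 higher (30.2%), the 2 added being Slfn2 and Lgals9. The genes that did not fall were Ifitm6, Isg20 and Ifitm2, which rose, and Slfn2, Lgals9 and Pnpt1. In RNA from whole cultures, fewer cells of a type and less RNA per cell cannot be told apart.

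**Figure D2:**
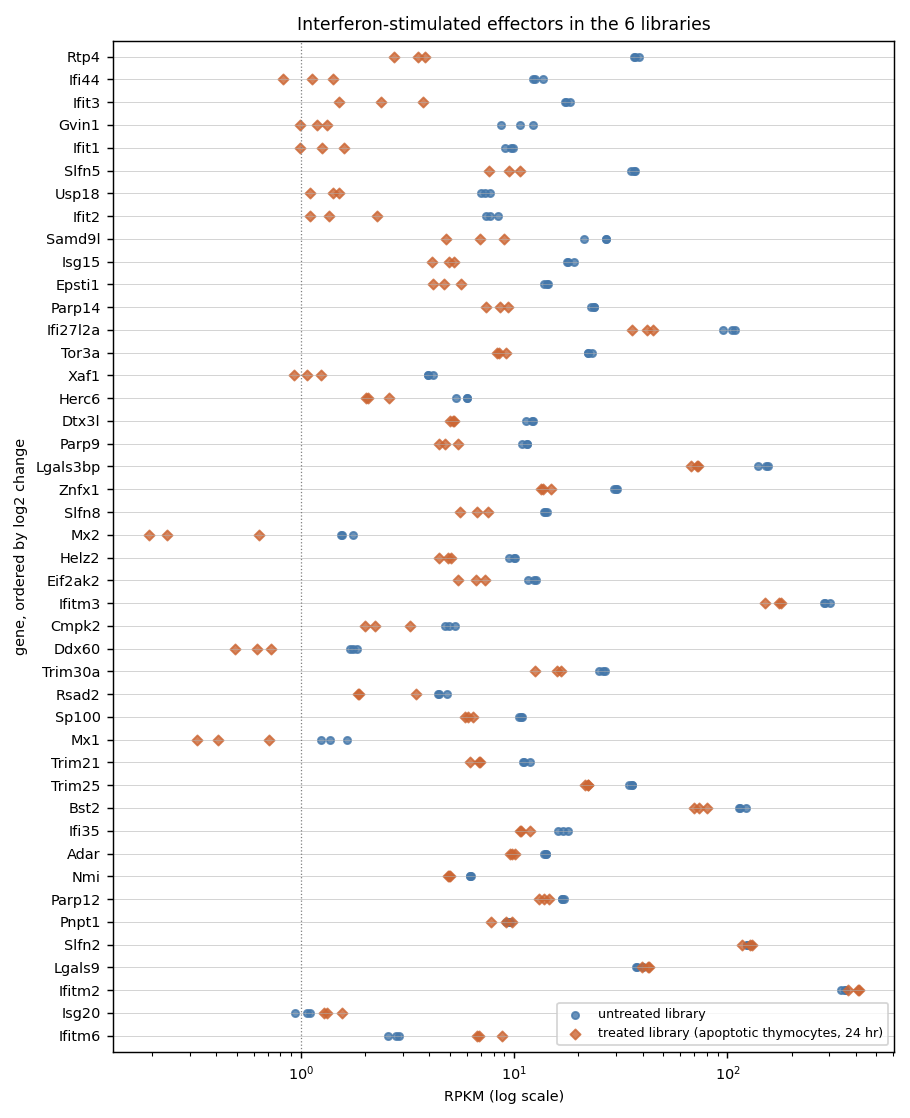
RPKM (log axis) of the 44 effectors in the 3 untreated (circles) and 3 treated (diamonds) libraries, ordered by log2 change, with a dotted line at 1 RPKM. Groups overlap only in Slfn2, Lgals9 and Pnpt1, and the treated values of Mx1, Mx2 and Ddx60 lie under 1 RPKM.

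Untreated cells carried the effectors at very different levels. The highest was Ifitm2, at 351 ± 9.19 RPKM (mean ± SD, n = 3, as throughout), followed by Ifitm3 at 291 ± 10.8, Lgals3bp at 149 ± 8.5, Slfn2 at 125 ± 3.30, Bst2 at 117 ± 5.04 and Ifi27l2a at 103 ± 6.69. The libraries of these 6 genes did not overlap between neighbours in that order. The lowest were Isg20 at 1.03 ± 0.0870, Mx1 at 1.41 ± 0.207, Mx2 at 1.62 ± 0.119 and Ddx60 at 1.76 ± 0.0626, and there Mx1 overlapped Mx2 and Mx2 overlapped Ddx60. Of the 44 genes, 36 stood at 1 RPKM or more in every library, and 0 were under 1 RPKM in all of them.

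ISG15 is a ubiquitin-like protein that is attached to other proteins. Usp18 encodes the protease that takes it off and that also restrains the interferon receptor, and Herc6 the ligase that attaches it in mice. All 3 fell. Isg15 (ENSMUSG00000035692, chromosome 4, 156199424 to 156200818) read 17.6, 19.0 and 17.9 RPKM in the untreated libraries and 4.95, 4.12 and 5.22 in the treated ones. The groups were far apart, with a 3.81-fold fall (log2 change -1.74, SE 0.0739, adjusted p = 6.73e-08). Usp18 (chromosome 6, 121245906 to 121270916) read 7.31, 7.68 and 6.95 RPKM untreated and 1.5, 1.41 and 1.10 treated, a 5.46-fold fall (log2 change -1.83, SE 0.0744). Herc6 went from 5.78 ± 0.385 to 2.22 ± 0.322 RPKM.

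IFIT proteins bind viral RNA that lacks the host's cap marks and stop its translation. Their genes lie side by side on chromosome 19, from 34550694 to 34650009, and all 3 fell steeply. Ifit3 read 17.5, 18.3 and 17.3 RPKM untreated and 3.73, 1.51 and 2.38 treated. Treated replicate 1 was the highest of its group, yet far below the untreated libraries, and the fall was 6.97-fold (log2 change -2.45, SE 0.184, adjusted p = 3.28e-06). Ifit1 read 9.67, 9.83 and 9.04 RPKM untreated and 1.60, 1.26 and 0.991 treated, a 7.42-fold fall (log2 change -2.21, SE 0.0910). Ifit2 went from 7.82 ± 0.525 to 1.58 ± 0.619 RPKM, with treated replicate 1 again the highest. Ifit3 has a near-identical copy in the mouse genome, so its reads may be shared.

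Of the other 11 genes of RNA binding, RNA editing and translation control, 8 fell, 1 rose and 2 were not called. Eif2ak2, which encodes the kinase PKR that halts translation on sensing double-stranded RNA, fell 1.90-fold to 6.44 ± 0.929 RPKM. Adar, the enzyme that edits adenosine in double-stranded RNA, fell 1.43-fold, from 14 ± 0.219 to 9.81 ± 0.295. Samd9l, a translation inhibitor, fell 3.62-fold from 24.9 ± 3.26 to 6.89 ± 2.10, with a wide spread in both groups. The helicase genes Znfx1, Helz2 and Ddx60 fell 2.14-fold, 2.06-fold and 2.88-fold. Ddx60 went from 1.76 ± 0.0626 to 0.611 ± 0.117 RPKM, under 1 RPKM in every treated library, on 80 to 130 recovered reads there. It passed the filter only through the untreated libraries and could not have been called higher.

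The exceptions in this group stood beside genes that fell. Isg20, a 3′-to-5′ exonuclease of single-stranded RNA, read 0.936, 1.10 and 1.07 RPKM untreated and 1.33, 1.56 and 1.28 treated. All treated libraries were above all untreated ones, on 33 to 48 recovered reads against 55 to 65, and the rise was 1.34-fold (log2 change 0.23, SE 0.0682, adjusted p = 0.0150). With untreated replicate 1 left out Isg20 was no longer called (adjusted p = 0.0713), nor with treated replicate 2 left out (0.0654). Pnpt1, a mitochondrial RNA-degrading enzyme, read 9.44, 9.16 and 9.50 RPKM untreated and 9.77, 9.19 and 7.74 treated. Its groups overlapped, and the 95% confidence interval of its log2 change ran from -0.24 to 0.10 (adjusted p = 0.418).

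Slfn2, Slfn5 and Slfn8 belong to the Schlafen family, regulators of growth and of RNA that lie next to each other on chromosome 11, from 82951349 to 83070678. They parted ways. Slfn5 fell 3.91-fold from 36.1 ± 0.777 to 9.25 ± 1.52 RPKM and Slfn8 fell 2.13-fold from 14 ± 0.197 to 6.59 ± 0.988. Slfn2, the most abundant of them, read 124, 129 and 123 RPKM untreated and 117, 127 and 130 treated. Its groups overlapped, with a log2 change of -0.01 (95% interval -0.12 to 0.11, adjusted p = 0.929), and it was called higher after median-of-ratios rescaling (log2 change 0.14, adjusted p = 0.0362). The ratio of Slfn2 to Slfn5 within a library does not depend on scaling. It was 3.38 to 3.67 in untreated and 11.1 to 17.1 in treated libraries, with no overlap. Schlafen genes have close paralogs, and how shared reads were counted is not given in the sources used here.

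On the log2(RPKM + 1) scale the membrane group held both the largest fall and the largest rise of the 44. Rtp4, a chaperone of receptors in the membrane (chromosome 16, 23609919 to 23614222), read 36.5, 38.6 and 36.6 RPKM untreated and 3.55, 3.82 and 2.73 treated. That is an 11.1-fold fall (log2 change -3.14, SE 0.0879, adjusted p = 5.20e-09). The SD was 3.12% of the mean in untreated and 17.0% in treated libraries. Bst2, or tetherin, which holds budding virus at the cell surface, fell 1.56-fold with no overlap, from 117 ± 5.04 to 74.6 ± 5.18.

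IFITM proteins block the fusion of viruses with endosomal membranes. Their genes Ifitm2, Ifitm3 and Ifitm6 lie on chromosome 7 between 140954839 and 141016892, and they moved in different directions. Ifitm3 (chromosome 7, 141009586 to 141010770) read 284, 286 and 304 RPKM untreated and 150, 178 and 175 treated. Its groups were well apart, and it fell 1.74-fold, from 291 ± 10.8 to 167 ± 15.5 RPKM (log2 change -0.80, SE 0.0686, adjusted p = 8.22e-06). Ifitm2 read 341, 355 and 357 RPKM untreated and 366, 411 and 413 treated, a 1.13-fold rise in which treated replicate 1 came close to the untreated range (log2 change 0.18, SE 0.0571, adjusted p = 0.0236). The call of Ifitm2 was lost with no filter on low values (adjusted p = 0.0587) and without any one of untreated replicates 1, 2 or 3 or treated replicates 2 or 3 (adjusted p = 0.0504 to 0.101). Within each library the ratio of Ifitm2 to Ifitm3 was 1.18 to 1.24 untreated and 2.31 to 2.45 treated, so the relation between these neighbours shifted whatever the scaling.

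Ifitm6 read 2.87, 2.78 and 2.56 RPKM untreated and 6.84, 8.76 and 6.67 treated. Every treated library was above the untreated ones, and the rise was 2.71-fold (log2 change 1.16, SE 0.0910, adjusted p = 4.35e-06). Some neutrophil markers were also higher in treated libraries. The summed level of 8 neutrophil markers was 0.248 to 0.410 RPKM untreated and 3.76 to 4.30 treated. Most of it came from Ngp, which went from 0.181 ± 0.111 to 2.81 ± 0.122 and was the only one of the 8 that passed the filter. Ngp was called higher, but it passed only through the treated libraries and could not have been called lower. Of the others, which were not tested, Elane, Camp, Ltf and Cxcr2 had every treated library above every untreated one. Camp went from 0.0240 to 0.758 RPKM and Ltf from 0.0408 to 0.330. Elane and Cxcr2 had 0 reads in untreated libraries and only 1 to 5 and 1 to 3 recovered reads in treated ones. Prtn3 (0.0363 to 0.0404 RPKM) and Mpo (0.0246 to 0.00855 RPKM) overlapped between the groups, and Ly6g was at 0 in all libraries. Their part in the level of Ifitm6 was not tested. IFITM genes resemble each other in sequence, and reads shared between them could be counted in more than one gene.

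Rsad2 and Cmpk2 are neighbours on chromosome 12 (26442753 to 26479835) whose products both act on nucleotides. CMPK2 is a nucleotide kinase of mitochondria, and viperin, the product of Rsad2, turns CTP into a chain-terminating nucleotide. Rsad2 read 4.38, 4.45 and 4.84 RPKM untreated and 3.45, 1.87 and 1.84 treated, and Cmpk2 read 4.92, 5.26 and 4.72 untreated and 3.24, 1.99 and 2.22 treated. In both genes treated replicate 1 was well above the other treated libraries and below the untreated ones. Rsad2 fell 1.91-fold (log2 change -0.75, SE 0.153, adjusted p = 0.00237), or by 0.96 on the log2 scale without treated replicate 1, and Cmpk2 had a log2 change of -0.79 (SE 0.117). The ratio of Rsad2 to Cmpk2 overlapped between the groups, at 0.846 to 1.03 untreated and 0.832 to 1.06 treated.

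Mx proteins are large GTPases that trap viral nucleoproteins, and common inbred laboratory mouse strains carry defective Mx genes. Both genes were low and fell further. Mx2 (chromosome 16, 97536083 to 97560899) read 1.76, 1.56 and 1.54 RPKM untreated and 0.638, 0.236 and 0.193 treated, on 82, 90 and 86 against 40, 13 and 11 recovered reads. Treated replicate 1 stood above the other treated libraries and below the untreated ones, and the fall of the means was 4.55-fold (log2 change -0.96, SE 0.115, adjusted p = 7.70e-05). Mx1 went from 1.41 ± 0.207 to 0.480 ± 0.202 RPKM. Mx1 and Mx2 passed the filter only through the untreated libraries, so neither could have been called higher. Gvin1, a very large interferon-inducible GTPase with several close copies, read 12.2, 8.71 and 10.6 RPKM untreated and 1.19, 1.33 and 0.994 treated, a 9.01-fold fall (log2 change -2.40, SE 0.109).

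ADP-ribosyltransferases of the interferon response, with their partner ligase, all fell. PARP9 and DTX3L form a complex that ubiquitinates histones and viral proteins, and their genes lie beside Parp14 on chromosome 16, from 35832874 to 35972605. Parp14 read 23.6, 23.0 and 23.6 RPKM untreated and 9.35, 8.59 and 7.39 treated, a 2.77-fold fall (log2 change -1.37, SE 0.0723). Dtx3l read 12.1, 12.2 and 11.4 untreated and 4.99, 5.16 and 5.23 treated, and its fall of 2.32-fold equalled that of Parp9. The Parp9 to Dtx3l ratio was 0.949 ± 0.0525 in untreated and 0.950 ± 0.123 in treated libraries. Parp12, an antiviral enzyme encoded elsewhere on chromosome 6, fell least, from 16.9 ± 0.176 to 13.8 ± 0.751 (log2 change -0.27, adjusted p = 0.00106), and lost its call with upper-quartile scaling (adjusted p = 0.0980).

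The 4 genes of TRIM ligases and nuclear bodies fell by like amounts, with log2 changes from -0.76 to -0.66. Trim30a, a restraint on NF-kB signalling, read 26.1, 25.0 and 26.6 RPKM untreated and 16.7, 15.8 and 12.5 treated. Sp100, a scaffold of PML nuclear bodies, read 10.5, 10.8 and 10.8 untreated and 6.44, 6.06 and 5.86 treated. Trim25, which activates the RNA sensor RIG-I, was the most abundant, at 35.6, 34.5 and 35.5 untreated and 21.4, 22.1 and 22.3 treated, a 1.61-fold fall with an adjusted p of 8.17e-07. Trim21, the cytosolic antibody receptor, fell 1.70-fold. Trim30a belongs to a cluster of similar genes, and its reads may be shared.

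The galectin genes differed. Lgals3bp, a secreted glycoprotein that binds galectins, read 152, 139 and 155 RPKM untreated and 67.7, 72.4 and 71.9 treated, a 2.11-fold fall (log2 change -1.06, SE 0.0532). Lgals9, the galectin that binds TIM-3, read 37.6, 40.1 and 37.3 untreated and 39.8, 42.3 and 42.7 treated, with overlapping groups (log2 change 0.12, 95% interval 0.01 to 0.22, adjusted p = 0.0575). It was called higher after median-of-ratios rescaling (log2 change 0.26, adjusted p = 0.00112) and without untreated replicate 2 (0.0428) or treated replicate 1 (0.0207).

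All 7 of the remaining interferon-induced genes fell. Ifi44, whose product restrains cell growth and virus production, read 12.5, 12.3 and 13.6 RPKM untreated and 1.42, 1.13 and 0.826 treated. Its 11.4-fold fall was the largest ratio of means among the 44 (log2 change -2.71, SE 0.0960, adjusted p = 2.10e-08). Epsti1 read 14.3, 13.8 and 14.2 untreated and 4.69, 5.63 and 4.18 treated, a 2.92-fold fall. Ifi27l2a, a small membrane protein gene and the most abundant of the group, read 95.4, 108 and 105 untreated and 35.6, 44.8 and 41.7 treated. Xaf1, a promoter of apoptosis, fell 3.74-fold, and Tor3a, a torsin ATPase of the endoplasmic reticulum, fell 2.60-fold. The partner proteins IFI35 and NMI bind each other, and their genes fell least, by 0.57 for Ifi35 and by 0.28 for Nmi on the log2 scale.

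**Figure D3:**
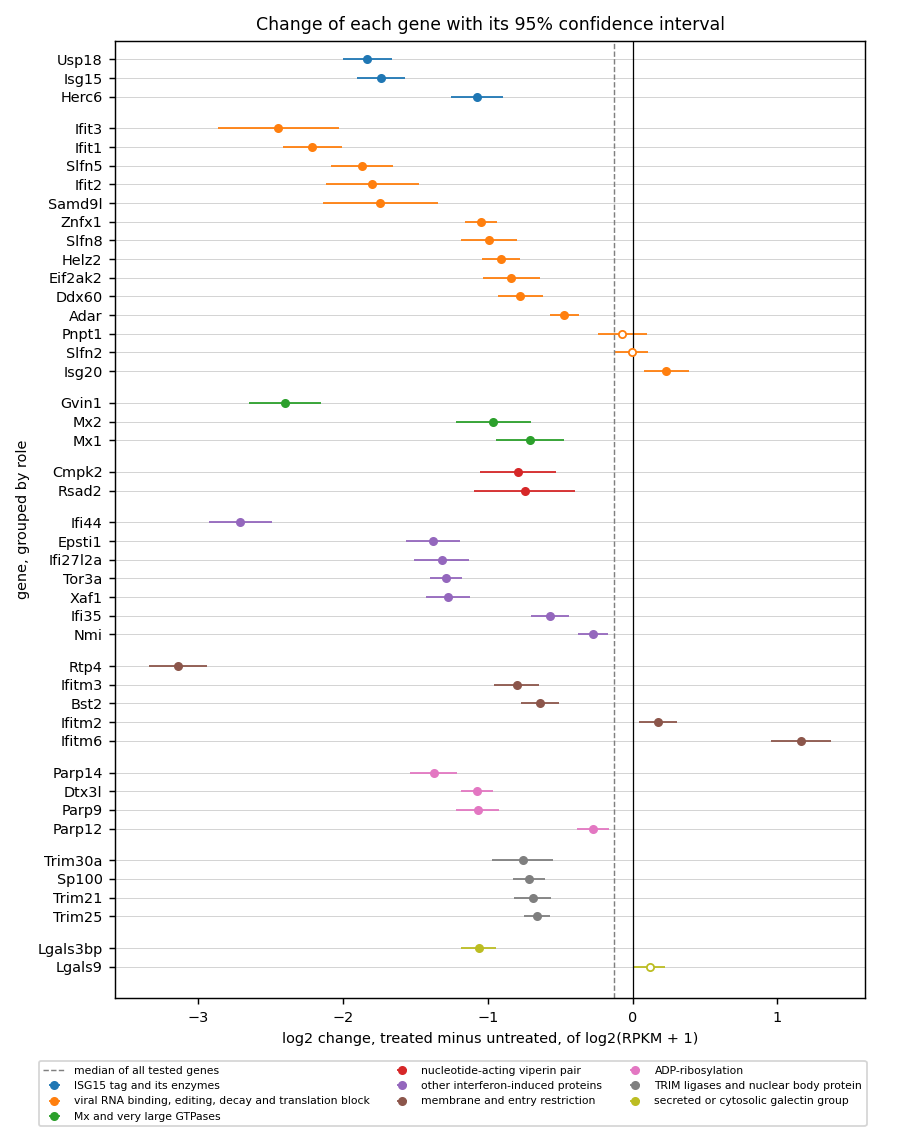
Log2 change of each effector with its 95% confidence interval (limma), grouped and coloured by role, with the median of all tested genes as a dashed line at -0.13. Filled points were called and open points (Pnpt1, Slfn2, Lgals9) were not. Changes run from -3.14 in Rtp4 to 1.16 in Ifitm6.

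The treated libraries were further apart on these genes than the untreated ones. The SD between libraries was a median 3.69% of the mean in untreated and 11.9% in treated libraries, against 4.02% and 6.18% over all tested genes. Treated replicate 1 was the highest treated library in 22 of the 44 genes, against 33.8% of all tested genes. It exceeded the mean of treated replicates 2 and 3 by more than 1.2-fold, a limit set after the values were seen, in 14 of the 44 (31.8%) and in 10.1% of tested genes. These included Mx2 (2.97-fold), Mx1 (1.93-fold), Ifit3 (1.92-fold), Rsad2 (1.86-fold) and Ifit2 (1.86-fold). The effectors and all tested genes were not matched for level in these comparisons. In treated libraries Mx2 had 11 to 40 recovered reads, Mx1 27 to 67 and Rsad2 184 to 387. The part of low read counts in the spread was not tested. Without treated replicate 1, 38 genes were lower and 4 were higher, the fourth being Lgals9.

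**Figure D4:**
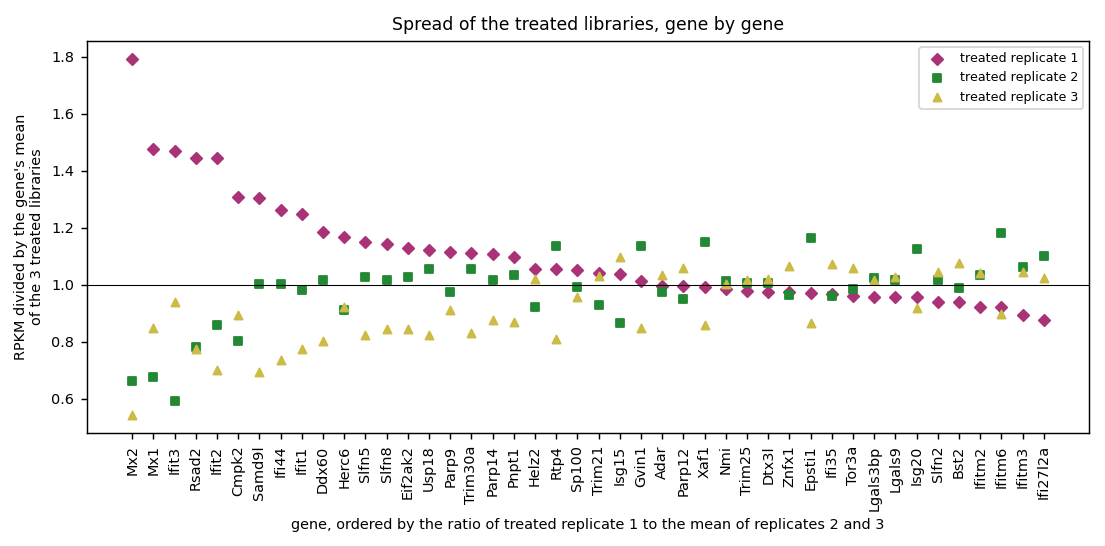
RPKM of each effector in the 3 treated libraries divided by their mean, ordered by how far replicate 1 exceeds replicates 2 and 3. Replicate 1 stands highest for Mx2, Mx1, Ifit3, Rsad2 and Ifit2 on the left and at or below the others for Ifitm2, Ifitm3 and Ifi27l2a on the right.

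Other steps of the pathway were looked up in lists of genes, also chosen with earlier results of these data known. Of 21 interferon genes, 0 reached the filter and 18 were at 0 in every library. Ifnb1 was listed at 0.134, 0.109 and 0.113 RPKM in untreated and at 0 in treated libraries. Ifnz and Ifna16 were above 0 in 2 libraries and 1 library, at 0.0264 to 0.0286 and 0.0435 RPKM. Levels this low rest on single reads or a few, and no interferon gene could be tested.

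Among 17 tested genes of the receptor and its signalling, 12 fell, 2 rose and 3 were not called. Beside these and the next counts, 46.0% of all tested genes were lower and 18.8% higher. Irf7, a transcription factor that amplifies interferon production, went from 13.1 ± 0.140 to 2.63 ± 0.181 RPKM. Stat2, which acts on the ISRE with IRF9, fell 2.13-fold. Jak1 and Pias1 rose, and Socs1 and Socs3 were too low to be tested. Of 17 sensors and adaptors, 12 fell, 2 rose and 3 were not called. Dhx58 and Ddx58, which encode the RNA sensors LGP2 and RIG-I, fell 3.82-fold and 2.39-fold, as did Traf3 (2.16-fold), while the endosomal RNA sensor gene Tlr7 rose from 33.7 to 68.2 RPKM. Of 16 tested OAS and inducible GTPase genes, 14 fell, 1 rose and 1 was not called. The smallest p-values there were those of Oasl2 (6.19-fold), Oas3 (3.71-fold) and Gbp9 (7.59-fold). Oasl1, Gbp3 and Gbp8, and Zbp1 among the sensors, passed the filter only through the untreated libraries and could not have been called higher. Gbp4, Gbp5, Gbp6, Iigp1 and Tgtp1 were too low to be tested. The median log2 change was -0.48 for the receptor list, -0.44 for the sensors and -0.92 for the OAS and GTPase list, beside -0.94 for the effectors and -0.13 for all tested genes. After median-of-ratios rescaling, 10 genes of the receptor list were lower and 3 higher, and 11 and 4 of the sensors. In the OAS and GTPase list 14 were lower and 1 higher, beside 29.8% and 30.2% of all tested genes.

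**Figure D5:**
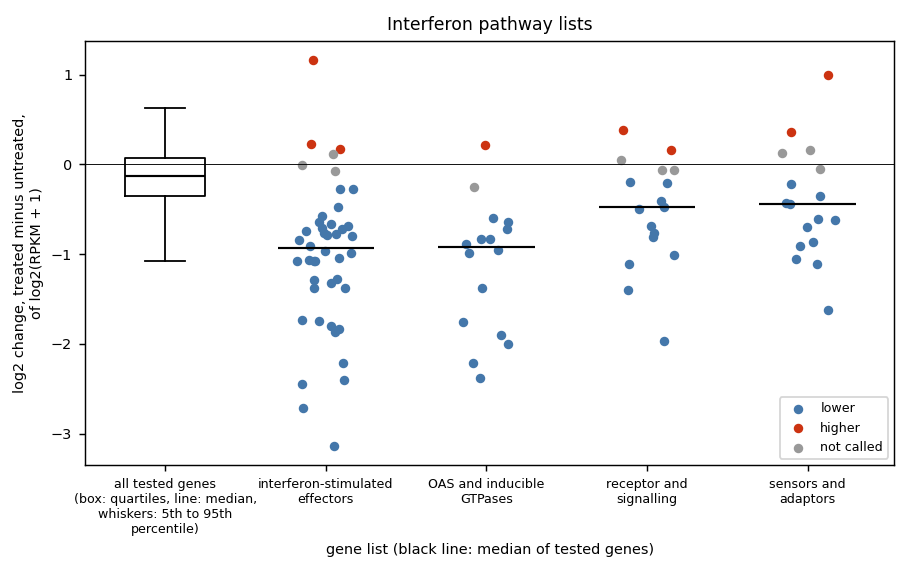
Log2 change of tested genes in the 4 interferon lists (points coloured by call, black line the median) beside the distribution of all tested genes (box from the lower to the upper quartile with the median, whiskers from the 5th to the 95th percentile). Medians are -0.94 for the effectors, -0.92 for OAS and GTPase genes, -0.48 for signalling and -0.44 for sensors.

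The 8 macrophage markers were present in all libraries, but their levels changed: 6 fell and 2 rose, or 4 fell and 2 rose after median-of-ratios rescaling. Fcgr1 fell 7.09-fold, from 52.7 ± 2.54 to 7.43 ± 0.401 RPKM, Cd14 fell 3.96-fold, Itgam 3.61-fold and Csf1r 1.49-fold. Mertk rose 4.33-fold, from 21.9 ± 0.415 to 95 ± 4.21 RPKM, and Lyz2 rose 1.45-fold. Adgre1 and Cd68 moved least, falling 1.09-fold and 1.11-fold. Thymocyte markers were near 0. Of 18, Cd3e, Cd8b1, Rag2, Ptcra and Themis were at 0 in every library, and the summed level of the 17 apart from Cd4 was 0.479 to 0.764 RPKM untreated and 0.190 to 0.293 treated. Cd4 was at 4.32 ± 0.165 and 2.14 ± 0.155. Summed erythroid markers went from at most 0.0515 to between 0.923 and 1.48 RPKM. Summed dendritic cell, B cell and stromal markers were at most 0.203, 0.596 and 2.67 RPKM in any library. The part of these cells in the effector levels was not tested.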

How the data were processed

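Poly(A) RNA of 6 libraries (3 untreated, 3 treated) was sequenced from strand-specific libraries, per the labels' protocols. The deposited values are RPKM, per the file headers, for 38124 genes, on GRCm38 (mm10), which the series design and the submitters' processing notes name. Aligner, counting program, gene models and whether strand was used are not given in the sources used here. Each column was matched to a sample by its title.

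RPKM times gene length times depth gives reads, so depths and lengths were searched for values that make all reads of a gene whole (within 0.001) with GENCODE M21 exon lengths or, failing those, lengths up to 30000 bases. Whole reads were found for all 18737 genes above 0, up to a common factor within a gene.

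The test was that of limma (version 3.58.1, in R 4.3.3), two-sided, with an intensity trend and group as its only term. It took log2(RPKM + 1) of genes reaching 1 RPKM in 3 libraries or more. The fit was also run on simulated reads with an equal spread setting in both groups, unlike the effectors here. The outcome of that run is not reported here. Other steps used Python 3.11.15 and pandas 2.3.3. Coordinates are 1-based.

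The 44 genes, their role groups and the other lists were chosen with earlier results of these data known. Values in all libraries are given, within each role, for the 2 genes with the largest absolute change and the most abundant one, and for each gene not called lower. Up to 3 genes with the smallest p are named per pathway list, and some of these genes are not reported here. The ratios within libraries, the comparison of treated replicate 1 with the others and further genes named as exceptions were chosen after their values were seen. Alternatives were a pseudocount of 0.1, no filter or 5 RPKM, median-of-ratios and upper-quartile scaling, a replicate block, and leaving out each library.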

Additional observations from a re-analysis of the deposited data

How the results depend on the processing

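The count of effectors called lower was 38 with a pseudocount of 0.1, with no filter, with median-of-ratios scaling and with the replicate block, 37 with upper-quartile scaling and 32 of the 37 tested with a filter at 5 RPKM. Leaving out each library in turn gave 35 to 38, the 35 where an untreated library was left out and 41 genes were tested. Mx1, Mx2 and Ddx60 then failed the filter. The count called higher was less stable: 5 with median-of-ratios scaling, 5 with upper-quartile scaling, and 1 to 4 when each library was left out, with 1 (Ifitm6) without untreated replicate 1 or treated replicate 2. Slfn2 turned positive with median-of-ratios scaling (log2 change 0.14), upper-quartile scaling (0.17), without untreated replicate 2 (0.016) and without treated replicate 1 (0.038), and was -0.037 without treated replicate 3. Pnpt1 turned positive with median-of-ratios scaling (0.062), upper-quartile scaling (0.085) and without treated replicate 3 (0.015), and was -0.14 without treated replicate 1. The cause of these changes was not tested. Over all tested genes, 1915 were higher and 4679 lower, against 3064 and 3023 with median-of-ratios and 3280 and 2814 with upper-quartile scaling. Replicate numbers are shared by the groups, but the labels do not say that they pair libraries, and the correlations of deviations for same-numbered libraries were 0.197, -0.031 and -0.162. With the replicate block 38 effectors were lower, 3 higher, and 6531 genes changed in all, against 6594 without it. Depth limits the lowest genes most: Mx2 rests on 11 to 40 recovered reads in treated libraries.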
